A study of Rattus norvegicus with 7 samples.

Results

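The microRNAs miR-101a and miR-101b were followed in rat liver after dietary exposure to potassium perfluorooctanesulfonate (PFOS), a persistent fluorinated surfactant. The members were chosen by name, as every array entry called miR-101a or miR-101b, with or without a star, which gave 4 of the 677 rat miRNAs on the array. They are the guide strands rno-miR-101a and rno-miR-101b (rno for Rattus norvegicus, left off below) and the star strands miR-101a* and miR-101b*, the opposite arms of the same precursors. The PFOS group was 4 adult male Sprague-Dawley rats fed a diet holding PFOS at 50 mg/kg of diet for 28 days, and the control group was 3 adult male rats of the same strain on a control diet for the same time. Each array held Cy3-labelled total RNA from the liver of 1 rat, and nothing was pooled. The submitters hybridised RNA of 4 rats per group and dropped 1 control array that failed their quality checks. The study addressed hepatic miRNAs and thyroid hormone homeostasis under PFOS.

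A miRNA is cut from a hairpin precursor, and one arm is usually loaded into an Argonaute protein, where its seed (bases 2 to 8 from the 5′ end) pairs with target transcripts and lowers their output. The miR-101 family is conserved among vertebrates and is encoded by separate genes. In human cells it is known to target EZH2, the histone methyltransferase of Polycomb repressive complex 2, and PTGS2, the inducible cyclooxygenase, and its level is known to fall in human liver tumours.

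The mature guide strands are shown first because the paralogs differ in so little, with miR-144 beside them as the only other rat miRNA of the RefSeq table with the same bases 2 to 7. Capitals mark the seed.
miR-101a-3p: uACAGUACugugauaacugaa
miR-101b-3p: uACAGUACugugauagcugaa
miR-144-3p: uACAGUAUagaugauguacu
The sequences are those of RefSeq (GRCr8), in which all 4 members had an entry. The 2 guide strands were identical at 20 of 21 bases and differed by A16G (miR-101a base first, position counted from the 5′ end), outside the seed. Of 724 mature rat miRNAs in the table, 2 carried the seed ACAGUAC, namely these 2, and 3 carried its first 6 bases, ACAGUA. The probe sequences were not used here, so how much of the signal on a miR-101a probe came from miR-101b, or the reverse, was not tested.

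The precursors are shown to place both arms, with the mature strands in capitals, the star strand (5p) before the guide strand (3p).
Mir101a: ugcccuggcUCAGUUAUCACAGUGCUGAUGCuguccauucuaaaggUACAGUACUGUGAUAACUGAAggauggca
Mir101-2: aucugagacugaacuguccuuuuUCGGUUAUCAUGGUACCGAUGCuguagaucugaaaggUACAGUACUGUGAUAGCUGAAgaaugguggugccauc
In GRCr8, Mir101a lies on the minus strand at chr5:121081683-121081757, within the limits of the long non-coding RNA gene LOC120102934. Mir101-2, the gene of miR-101b, lies on the plus strand at chr1:236273922-236274018, within the limits of the protein-coding gene Rcl1. Among protein-coding genes, Jak1 lies next before Mir101a, and LOC134479017 and then Ak4 lie after it, while Ak3 lies next before Mir101-2 and Jak2 next after it. Each miRNA gene thus has a Janus kinase gene on one side and an adenylate kinase gene on the other. The 2 star strands differed at 5 of 22 bases, the first of them at position 3, within the seed.

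Both guide strands were measured on every array. Each had 2 probes of 10 spots, and all 266 spots kept over the 7 arrays were well above background. Kept spots of a probe on an array varied by 2.13% to 9.81% (coefficient of variation). This is the technical spread within an array after flagged outlier spots were left out.

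The signal of miR-101a was slightly higher in PFOS livers than in control livers, by 1.14-fold, and did not pass the test over all miRNAs. Its normalised signal (the 2 probes summed, after cyclic loess between arrays, in arbitrary units) was 446, 511, 488 and 498 on PFOS replicates 1 to 4, against 417, 443 and 416 on control replicates 1 to 3. All 4 PFOS livers exceeded all 3 control livers, with PFOS replicate 1 and control replicate 2 nearly touching. The means were 486 ± 27.9 in PFOS livers (SD, n = 4) and 426 ± 15.2 in control livers (SD, n = 3). The log2 fold change of 0.19 (SE 0.08, 95% interval 0.0068 to 0.37) came with limma p-values of 0.0441 before and 0.249 after adjustment. As a fold, the interval ran from 1.00 to 1.29.

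These values stand against the following background. Of the 175 miRNAs detected widely enough to be tested, limma called 0 (0%) with the threshold of 0.05 on the adjusted p, the lowest of which was 0.126. Before adjustment 33 miRNAs (18.9%) lay under 0.05, 15 higher in PFOS livers (8.57%) and 18 lower (10.3%). The groups did not overlap, with PFOS higher, for 18 miRNAs (10.3%), miR-101a among them, and with PFOS lower for another 18 (10.3%). By unadjusted p miR-101a ranked 31 of 175 and miR-101b 94 of 175. The median log2 fold change of all tested miRNAs was -0.03 and the median standard error 0.14, so that both paralogs had a smaller error than the median miRNA.

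For miR-101b no difference was resolved. Its normalised signal was 1995, 2118, 2079 and 2159 on PFOS replicates 1 to 4, against 2111, 2059 and 1736 on control replicates 1 to 3. The groups overlapped: control replicates 1 and 2 lay among the PFOS values, and only control replicate 3 lay below them. The means were 2088 ± 70.0 in PFOS livers (SD, n = 4) and 1969 ± 203 in control livers (SD, n = 3). The log2 fold change was 0.09 (SE 0.09, 95% interval -0.13 to 0.31), and limma's adjusted p was 0.666. As a fold, the interval ran from 0.915 to 1.24. Without control replicate 3 the log2 fold change was -0.0035.

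**Figure D1:**
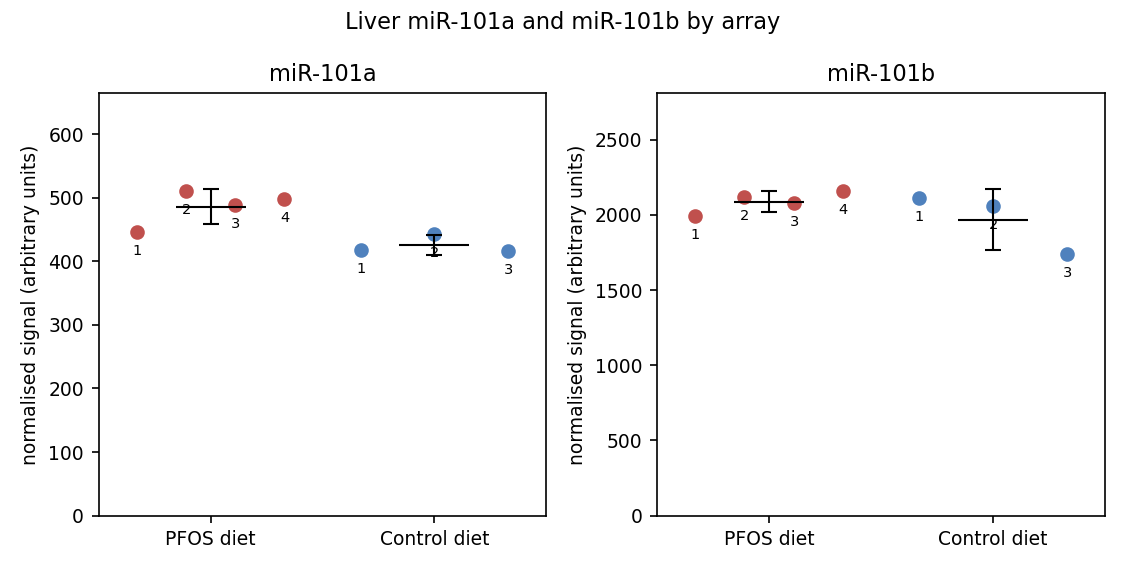
Normalised signal in arbitrary units (y axis, from 0) of miR-101a (left) and miR-101b (right) in PFOS livers and control livers. Each point is 1 array, numbered by replicate, the long bar is the group mean and the whiskers are 1 SD. For miR-101a the PFOS points (446 to 511) lie above the control points (416 to 443). For miR-101b control replicates 1 and 2 lie among the PFOS points, and control replicate 3 lies below them.

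**Figure D2:**
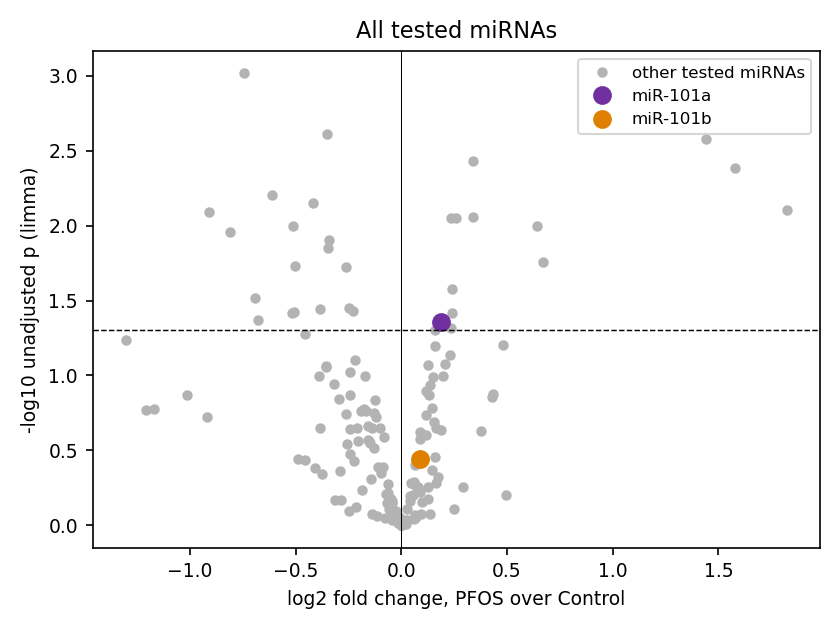
Log2 fold change, PFOS over control (x axis), against −log10 of the unadjusted limma p (y axis) for the 175 tested miRNAs, with miR-101a and miR-101b in colour. The dashed line marks the unadjusted threshold of 0.05. The point of miR-101a lies just above the line at 0.19 and that of miR-101b below it at 0.09.

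The probes of each miRNA, which share a target and are no replicates, gave the same picture when each was normalised and fitted on its own over the 380 probes of the tested miRNAs. Of these, limma called 0 (0%) after adjustment, and 67 (17.6%) lay under 0.05 before it. For 36 probes (9.47%) all PFOS values lay above all control values.

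Probe A_26_P00001303 of miR-101a gave 221, 250.0, 243 and 239 in PFOS livers, against 197, 210.3 and 201 in control livers. Its log2 fold change was 0.23 (SE 0.06, limma adjusted p = 0.118). Probe A_26_P00002576 gave 230.2, 259, 250.2 and 262 in PFOS livers, against 219, 221 and 217 in control livers, and 0.19 on the log2 scale (SE 0.06, adjusted p = 0.188). On both miR-101a probes the groups did not overlap, and PFOS replicate 1 was the lowest PFOS value.

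Probe A_26_P00001156 of miR-101b gave 696, 762, 760.0 and 773 in PFOS livers, against 739.8, 736 and 621 in control livers. Probe A_26_P00002566 gave 1288, 1362, 1312 and 1395 in PFOS livers, against 1371, 1326 and 1117 in control livers. On both miR-101b probes control replicate 3 was the lowest of the 7 arrays and the groups overlapped. The log2 fold changes were 0.10 (SE 0.08) and 0.08 (SE 0.09), with limma adjusted p-values of 0.664 and 0.827. Within an array the probes of a miRNA kept nearly the same distance. The log2 signal of A_26_P00002576 exceeded that of A_26_P00001303 by 0.04 to 0.15, and that of A_26_P00002566 exceeded that of A_26_P00001156 by 0.79 to 0.89.

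**Figure D3:**
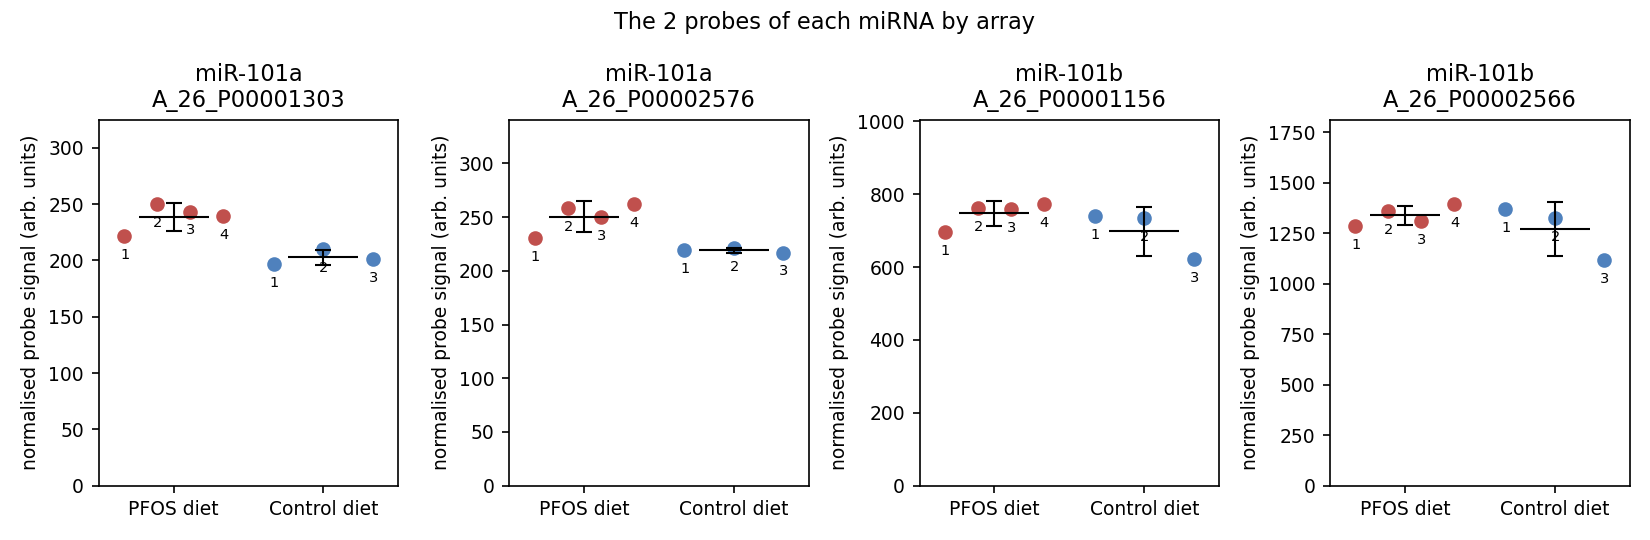
Normalised signal in arbitrary units (y axes, from 0) of the 2 miR-101a probes (left panels) and the 2 miR-101b probes (right panels) in PFOS livers and control livers. Each point is 1 array, numbered by replicate, the long bar is the group mean and the whiskers are 1 SD. Both miR-101a probes separate the groups, and both miR-101b probes have control replicate 3 lowest.

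Whether the paralogs differed in their response was tested on the log2 difference of miR-101a and miR-101b within each array. This difference compares probes and is no ratio of amounts, so only its change between groups is read. It was -2.16, -2.05, -2.09 and -2.12 on PFOS replicates 1 to 4, against -2.34, -2.22 and -2.06 on control replicates 1 to 3. The means were -2.11 ± 0.05 in PFOS livers (SD, n = 4) and -2.20 ± 0.14 in control livers (SD, n = 3), which differ by 0.10. An exact two-sided permutation test over the 35 splits gave p = 0.257, where 0.0286 is the smallest p it can give. With a single scaling factor per array, which cancels in this difference, the change was 0.02 (exact permutation p = 0.743). The measured fold changes of the paralogs were thus nearly equal before the loess, and a difference between them was not resolved after it. How far the probes of one paralog also read the other was not tested, so these are fold changes of probe signals.

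The star strands gave no measurable signal. Of 139 kept spots for miR-101a* (4 probes, 7 arrays) 1 was well above background, and of 136 for miR-101b* (2 probes) 0 were. The summed signal lay from -17.5 to -1.41 for miR-101a* and from -10.6 to -2.92 for miR-101b*, below the lowest signal of any detected miRNA on an array, which was 9.22 to 26.2. Neither star strand was tested, no fold is given for them, and no ratio of the arms of a precursor could be compared between diets.

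The unscaled miRNA signal was brighter on the PFOS arrays, and the size and sign of both fold changes depended on the scaling. Before any scaling, miR-101a had 427, 646, 746 and 617 units in PFOS livers, against 349, 284 and 339 in control livers. The unscaled signal of miR-101b was 1893, 2773, 3285 and 2769 in PFOS livers, against 1623, 1326 and 1392 in control livers. The groups did not overlap for either miRNA, and the unscaled log2 differences were 0.89 for miR-101a and 0.87 for miR-101b (limma adjusted p = 0.0322 for each). On this unscaled signal, limma called 53 of the 175 tested miRNAs (30.3%), and for 81 of them (46.3%) all PFOS values lay above all control values. The median of all tested miRNAs moved with them, to 0.69. Relative to that median, miR-101a stood 0.19 higher and miR-101b 0.17 higher, and any other single factor per array leaves such distances nearly as they are. The distance from the median was 0.22 for miR-101a and 0.12 for miR-101b after cyclic loess, 0.14 and -0.045 after quantile normalisation, and 0.0038 and -0.17 in the authors' deposited table.

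Of 5 array measures tested, none passed after adjustment, and 2 did not overlap between the diets. Over the 123 miRNAs detected on every array, the median signal before scaling was 226 to 326 in PFOS livers and 133 to 176 in control livers, a 1.74-fold ratio of means. As a share of the summed signal of those miRNAs, which is array signal and not molecules, miR-101a took 0.328% to 0.381% in PFOS livers and 0.293% to 0.307% in control livers. The share of miR-101b was 1.45% to 1.63% in PFOS livers and 1.20% to 1.43% in control livers, and neither share overlapped between the diets, as was so, with PFOS higher, for 27 of 175 miRNAs (15.4%). The labelling spike-in, an RNA added in a fixed amount before labelling, was 6571 to 10686 in PFOS livers and 3431 to 3659 in control livers, 2.23-fold by the means. The median signal and the spike-in each had an exact two-sided permutation p of 0.0286 and an adjusted p of 0.0714 over the 5 measures. The number of detected miRNAs was 161 to 200 on PFOS arrays and 131 to 174 on control arrays (exact permutation p = 0.0857). The hybridisation spike-in, added after labelling, was 45964 to 50543 on PFOS arrays and 49259.5 to 56212 on control arrays (0.929-fold, exact permutation p = 0.171). Negative control spots were level, at medians of 46 to 52 on PFOS arrays and 48 to 51 on control arrays (exact permutation p = 0.6). The part of the labelling in the values of miR-101a and miR-101b was not tested. Scaled to that spike-in, both miRNAs were lower in PFOS livers, with log2 fold changes of -0.24 for miR-101a and -0.26 for miR-101b (limma adjusted p = 0.318 and 0.277), while the median of all tested miRNAs was -0.43. In whole liver, more cells of a type and more of a miRNA per cell cannot be told apart.

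The authors' deposited table of log2 values, normalised by their cyclic lowess, gave another sign. In the authors' deposited table miR-101a read 8.05, 8.15, 8.10 and 8.10 in PFOS livers, against 8.07, 8.15 and 8.12 in control livers. The groups overlapped wholly, and limma on those values gave -0.01 (SE 0.05, adjusted p = 0.973). In the same deposited table miR-101b read 9.98, 9.86, 9.85 and 9.87 in PFOS livers, against 10.09, 10.24 and 9.90 in control livers. Its log2 fold change there was -0.19 (SE 0.09, adjusted p = 0.250). The change of miR-101a less that of miR-101b was 0.17 in the deposited table (exact permutation p = 0.143). For miR-101a the log2 fold change was 0.16 with quantile normalisation, 0.23 with a loess span of 0.4, 0.23 with the 75th percentile of detected miRNAs and no loess, 0.44 with that of all miRNAs and 0.23 with the summed signal. For miR-101b the same settings gave -0.02, 0.01, 0.21, 0.42 and 0.21.

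**Figure D4:**
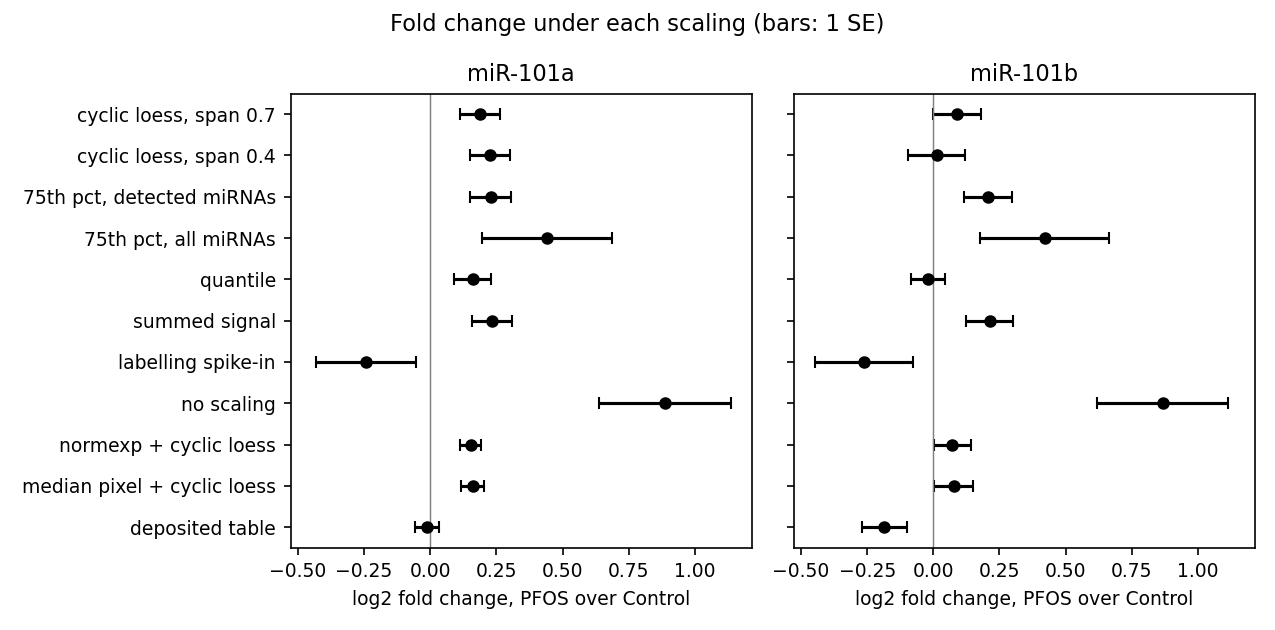
Log2 fold change, PFOS over control (x axis), of miR-101a (left) and miR-101b (right) under 11 ways of scaling or background correction (rows), with bars of 1 SE. The vertical line is 0. Values run from -0.24 with labelling spike-in scaling to 0.89 with no scaling for miR-101a, and from -0.26 to 0.87 for miR-101b.

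The difference in miR-101a was as large within each row of the slide as over both. All 7 arrays lay on 1 slide in 2 rows. In row 1, with 2 PFOS arrays and 1 control array, miR-101a averaged 478 in PFOS livers and 417 in the control liver (log2 difference 0.19). In row 2, with 2 PFOS and 2 control arrays, the means were 493 in PFOS livers and 429.7 in control livers (log2 difference 0.20). For miR-101b the log2 difference was -0.04 in row 1, with 2057 in PFOS livers and 2111 in the control liver, and 0.16 in row 2, with 2119 in PFOS livers and 1898 in control livers. With row as a block the fitted values were 0.20 for miR-101a (adjusted p = 0.279 in limma) and 0.08 for miR-101b (adjusted p = 0.711).

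The miRNAs with the profile nearest to each paralog were found by the root mean square difference over the 7 arrays of log2 values, each miRNA centred on its own mean. For miR-101a these were miR-20b-5p at 0.05, miR-30a at 0.06, miR-17-5p at 0.06, miR-30b-5p at 0.06 and miR-30d at 0.07, where the median over 174 miRNAs was 0.25. Their own log2 fold changes were 0.26, 0.16, 0.24, 0.09 and 0.15, none past the threshold. Fold changes near that of miR-101a follow from the choice, since nearness was taken over the same arrays. For miR-101b the nearest were miR-361 at 0.04, let-7d at 0.07, miR-30a at 0.07, miR-30e at 0.08 and miR-674-3p at 0.08, where the median was 0.24. The signal of miR-674-3p averaged 15.0 units in PFOS livers and 13.6 in control livers. This is close to 12.1, the floor to which lower signals were raised before the loess. The paralogs were at 0.09 from each other, so that miR-101b ranked 12 among the neighbours of miR-101a and miR-101a ranked 14 among those of miR-101b. All these profiles share arrays and normalisation. For miR-144, the miRNA with the shared bases 2 to 7, the signal was 123, 63.6, 135 and 85.3 in PFOS livers, against 138, 127 and 77.9 in control livers. The groups overlapped, and the log2 fold change was -0.19 (SE 0.33, limma adjusted p = 0.874).

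Other miRNAs that share a known role with miR-101 did not pass the test either. As given above, limma called 0 of the 175 tested miRNAs (0%). Counts of 0 past the threshold, here and below, thus set no list apart. Over all 175 tested miRNAs, 74 had a positive and 101 a negative log2 fold change. Of 14 other miRNAs known from human or mouse cells to target Ezh2, 11 were tested, 8 with a positive and 3 with a negative log2 fold change, 0 past the threshold in either direction and a median of 0.06, beside -0.03 over all tested miRNAs. The 4 with the smallest p were miR-26b at 0.14 (SE 0.08), let-7i at 0.12 (SE 0.07), miR-214 at -0.13 (SE 0.08) and let-7f at 0.12 (SE 0.08). Of 5 miRNAs known to target Ptgs2, all 5 were tested, 2 positive and 3 negative, 0 past the threshold, with a median of -0.03. Beside miR-26b, the smallest p-values belonged to miR-199a-3p at 0.13 (SE 0.20), miR-16 at -0.06 (SE 0.12) and miR-143 at -0.03 (SE 0.15).

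Of 15 miRNAs known to fall in liver tumours beside miR-101, 13 were tested, 5 positive and 8 negative, 0 past the threshold, with a median of -0.05. Among them miR-29c, which targets collagen transcripts, stood at 0.34 (SE 0.08, limma adjusted p = 0.126) and miR-29b of the same family at 0.16 (SE 0.07). A smooth muscle and stellate cell miRNA, miR-145, stood at -0.25 (SE 0.09), and miR-223, a myeloid miRNA, at -0.23 (SE 0.09). Other miRNAs of stellate cells and of leukocytes had positive log2 fold changes, as given below. Of 12 miRNAs listed as hepatocyte-enriched or abundant in liver, some of them star strands, 11 were on the array and 10 were tested. Of the tested ones, 3 were positive and 7 negative, 0 past the threshold, with a median of -0.05. The smallest p-values belonged to miR-455* at 0.64 (SE 0.18), which averaged 20.1 units in PFOS livers and 12.7 in control livers, miR-122* at -0.26 (SE 0.08), miR-22* at 0.23 (SE 0.11) and miR-194 at -0.12 (SE 0.08). The control mean of miR-455* lay close to 12.1, the floor to which lower signals were raised before the loess. The highest log2 fold change of the Ezh2 and of the Ptgs2 group was that of the same miRNA, miR-26b (0.14, SE 0.08). That of miR-101a (0.19, SE 0.08) lay above it by less than either SE. It lay inside the range of the tumour group and of the hepatocyte-enriched or liver-abundant group.

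The tissue label was checked against cell type miRNAs. All 4 hepatocyte miRNAs (miR-122, miR-122*, miR-192 and miR-194) were detected on all arrays, and their summed normalised signal was 64045 to 66751 in PFOS livers and 65338 to 67330.4 in control livers. That sum is mostly miR-122, with a mean signal of 58419 on PFOS arrays and 58819.8 on control arrays. All 4 had negative log2 fold changes (median -0.11), 0 past the threshold, and miR-122* lay lower in PFOS livers without overlap (-0.26, limma adjusted p = 0.166). Of 5 biliary epithelial miRNAs 3 were tested, and 2 were detected on no array. As in every list here, the summed signal counts all members on the array, those 2 included. It was 322 to 569.6 in PFOS livers and 88.4 to 213 in control livers, without overlap. Of all 175 tested miRNAs, 18 (10.3%) lay higher in PFOS livers without overlap, and 18 (10.3%) lower. The 3 tested biliary epithelial miRNAs, miR-429, miR-200a and miR-200b, had log2 fold changes of 1.44, 1.58 and 1.82 and a limma adjusted p of 0.126 each. Only 2 of these 3 were detected on all arrays, and the filter also passes a miRNA on its PFOS arrays alone. In control livers miR-429 averaged 17.5 units, not far above the floor of 12.1. Summed signals overlapped between the diets for stellate cells and fibroblasts (867 to 1166 in PFOS livers, 903 to 1130.3 in control livers) and for leukocytes and Kupffer cells (1079.7 to 1392 in PFOS livers, 1201 to 1328 in control livers). They also overlapped for erythroid cells (442 to 1076 in PFOS livers, 522 to 939 in control livers) and endothelium (1703 to 1842 in PFOS livers, 1569 to 1947 in control livers). Of 7 tested stellate cell and fibroblast miRNAs, 3 had positive and 4 negative log2 fold changes, 0 past the threshold. Among them miR-221 stood at 0.67 and miR-152 at 0.24, against miR-145, with a signal close to the floor, at -0.25. Of 5 tested leukocyte and Kupffer cell miRNAs, 2 were positive and 3 negative, 0 past the threshold. Here miR-142-5p stood at 0.15 and miR-150 at 0.10, against miR-223 at -0.23. The part of other cell types in the values of miR-101a and miR-101b was not tested.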

How the data were processed

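Spot intensity values were made by Agilent Feature Extraction 10.7.3.1 on 1-colour arrays, per the file headers. The processed signal is background-subtracted and detrended but not normalized between arrays. The flags (other units: well above background, outlier) come from the same software. The authors deposited a table of log2 values made by cyclic lowess, per the labels. Its column medians ran from 5.48 to 5.51, with no centring per miRNA. Its settings are not stated in the sources used here.

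Spots of a probe were averaged, leaving out flagged outliers, over 13540 non-control spots and 1644 probes, and the probes of a miRNA were summed. Arrays were scaled to the 75th percentile of the 123 miRNAs detected on all arrays. The floor was 12.1, the 1st percentile over detected values, before log2 and cyclic loess (span 0.7, 3 iterations, weight on those miRNAs). Detection needed over 50% of a probe's spots above background. Tested were miRNAs detected on all 3 control or at least 3 PFOS arrays, with lmFit and eBayes of limma 3.58.1 under R 4.3.3, and p-values were adjusted by Benjamini-Hochberg (threshold 0.05). Single values were tested by exact permutation over 35 splits. The small number of arrays limits the precision. Replicate numbers only name the arrays.

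Named were the members, the 5 nearest profiles of each and up to 4 miRNAs of each list by smallest p. Star arms failed the filter, so the planned fit of arm ratios was not run. Members and lists were chosen with earlier results of these data known. Summed signal scaling was an alternative chosen after seeing the data.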

Additional observations from a re-analysis of the deposited data

Results flagged for a closer look

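One of 12 measures screened on the 4 PFOS arrays had an array far from the others. On probe A_26_P00001156 of miR-101b, PFOS replicate 1 stood at 696 and the other PFOS arrays at 760.0 to 773. The gap took 0.839 of the group's range on the log2 scale, above Dixon's 95% critical value for 4 samples. Chance gives about 1 such group in 20. The second probe of miR-101b did not show it, with a gap of 0.300 of the range.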

How the results depend on the processing

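No paired analysis was possible because the animal numbers in the titles are not shared between the diets. The counts of alternatives below are no tally of separate checks. Those that changed only the set of tested miRNAs or the eBayes options could not move a fold change. Those without 1 array reused the other arrays. For miR-101a 21 of 24 alternatives kept the sign of 0.19 with no call. With no scaling it passed at 0.89, and it turned to -0.24 with labelling spike-in scaling and -0.013 in the deposited table. For miR-101b 19 of 24 kept the sign of 0.09 with no call. With no scaling it passed at 0.87, and it turned to -0.020 with quantile normalization, -0.26 with spike-in scaling and -0.19 in the deposited table. Leaving out 1 array gave 0.17 to 0.22 for miR-101a and -0.0035 to 0.15 for miR-101b, the lowest without control replicate 3. With spike-in scaling the 4 probes gave -0.22 (A_26_P00001303), -0.26 (A_26_P00002576), -0.25 (A_26_P00001156) and -0.27 (A_26_P00002566). With cyclic loess, leaving out 1 array gave -0.0099 (without control replicate 3) to 0.14 for A_26_P00002566. The change of miR-101a less that of miR-101b was positive in all 19 alternatives, from 0.02 to 0.21. These are not 19 separate checks. Settings with no scaling or a single factor per array all gave the same 0.02, since the factor cancels. Runs without 1 array reused the other arrays. With all arrays the exact permutation p was 0.0571 to 0.743, and the slide row block gave 0.11 with no p. Leaving out 1 array, where no permutation p can pass, gave 0.035 to 0.18, the lowest without control replicate 1 and the highest without control replicate 3.

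The number of miRNAs called, 0 in the values reported, was 53 with no scaling, 9 in the deposited table, 8 with spike-in scaling, 6 with normexp, 6 with the unsubtracted median pixel signal and 4 with slide row as a block. It was 3 with the 75th percentile of all miRNAs, and 1 each with a loess span of 0.4, with the scanner software's total gene signal and with all miRNAs tested. It was 0 whichever single array was left out. The cause of these changes was not tested. Both star strands had too few spots above background for any value, and the number of arrays limits all values.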
